A study of Homo sapiens with 44 samples.

Results

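The genes described here were the axon guidance ligands and receptors of the classical families: semaphorins with plexins and neuropilins, SLIT ligands with ROBO receptors, netrins with DCC and the UNC5 receptors, and ephrins with EPHA and EPHB receptors. They were chosen by gene symbol alone with a pattern over the deposited gene names. The pattern found 69 of 19923 genes, 35 ligands and 34 receptors in 10 families. These were 20 semaphorins, 9 plexins, 2 neuropilins, 3 SLIT ligands, 4 ROBO receptors, 4 netrins, 5 genes of the DCC and UNC5 group, 8 ephrins, 9 EPHA receptors and 5 EPHB receptors.

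The study treated human neuroblastoma cells with STM2457, a small molecule inhibitor of METTL3, the enzyme that places N6-methyladenosine (m6A) on mRNA. Kelly and NGP are established cell lines, both labelled MYCN-amplified and wild type, and each is 1 line. Cells received 8 µM STM2457 or DMSO. Kelly was sampled at 1 day and at 6 days, NGP at 6 days. Kelly tumours under the skin of male and female nude mice, which lack T cells, received 50 mg/kg STM2457 or vehicle (labelled DMSO) daily for 14 days. Each condition had input libraries (RNA-seq of poly(A) RNA) and RIP libraries, made from RNA fragments pulled down with an m6A antibody. A group held 3 libraries, or 2 in the xenograft, giving 44 libraries in 16 groups. The labels do not say whether replicates came from separate cultures or mice, so p-values measure only the spread between these libraries, which may be technical.

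Axon guidance cues are secreted or membrane-bound proteins that attract or repel growing neurites and migrating cells, and sympathoadrenal precursors, from which neuroblastoma arises, meet many of them. Class 3 semaphorins bind neuropilins, which signal through class A plexins, while other semaphorins bind plexins directly. SLIT proteins signal through ROBO receptors, netrins through DCC and the UNC5 receptors, and ephrins through EPH receptor kinases on neighbouring cells.

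Input totals ran from 24.1 to 26.6 M fragments in 1-day Kelly, from 5.77 to 31.5 M in 6-day Kelly, from 5.49 to 11.6 M in NGP and from 2.14 to 7.27 M in the tumours. Fitted replicate variation (coefficient of variation) was 0.0725, 0.0913, 0.24 and 0.448 in this order. All 9 neuroblastoma markers were detected in every input group. The summed level of 5 endothelial markers was at most 3.91 CPM (the count of a gene scaled to the library total) in the cultures. In the xenograft it was 15.3 to 17.6 CPM in DMSO and 9.79 to 12.5 CPM with STM2457. That of 5 immune markers was at most 12.5 CPM and that of 4 Schwann cell markers at most 6.28 CPM. The 6 fibroblast markers summed to 77.0 to 188 CPM, with COL1A2 at 0 in both xenograft groups, in 1-day Kelly and in 6-day Kelly in DMSO. In 6-day Kelly they summed to 137 to 143 CPM in DMSO and 101 to 123 CPM with STM2457, and COL1A1 fell by 1.00 on the log2 scale; their part in the results was not tested. Mouse stroma remains in a xenograft, and its share of the reads was not analysed here.

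Every guidance gene had at least 1 count in some input library. After a filter on low counts, 59 could be tested in 1-day Kelly, 57 in 6-day Kelly, 53 in NGP and 50 in the xenograft, and 42 in all 4 experiments. DCC, EFNA2, EPHA1, EPHA3, EPHB4, EPHB6 and ROBO4 were tested in none. DCC, the attractive netrin receptor, reached at most 0.662 CPM in the Kelly inputs and had no count in the NGP or xenograft inputs. For a gene that passed the filter through 1 treatment group only, the filter favoured a difference. All counts are therefore over the genes tested and not over all 69.

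The guidance genes are long. Their median exonic length was 6958 bases, against 4284 over all genes in the files, and 58 of the 69 were longer than the median gene. Levels are therefore compared between genes only per length, as CPM per kilobase of exon. In DMSO, 43 guidance genes reached 1 CPM per kilobase in 1-day Kelly, 40 in 6-day Kelly, 36 in NGP and 40 in the xenograft.

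In Kelly cells at 6 days in DMSO the guidance genes with the highest level per length were receptors. PLXNA1, a plexin that pairs with neuropilins, stood at 69.5 CPM per kilobase, and PLXNB2, a receptor of class 4 semaphorins, at 58.8. EPHB3, a receptor of B-type ephrins, followed at 38.4 and UNC5B, a repulsive netrin receptor, at 37.8 CPM per kilobase. The highest ligands were SLIT3 at 18.4, EFNB1 at 15.2 and SEMA3F at 14.3 CPM per kilobase. In NGP in DMSO PLXNB2 led with 34.9 CPM per kilobase, before PLXNA1 with 30.3, UNC5B with 19.5 and UNC5A with 16.9. NRP2 followed with 15.8, PLXND1 with 14.4, SEMA4C with 13.4, NTN3 with 12.8 and SLIT3 with 12.46 CPM per kilobase.

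Kelly and NGP differed in most of these genes. In the inputs of DMSO-treated cells at 6 days, 41 of 60 tested guidance genes differed by at least 2-fold (68.3%, against 32.1% of all genes tested). Of them 28 were higher in Kelly and 13 in NGP, where 17.8% and 14.3% of all genes were. Of the 41 genes 10 passed the filter on low counts in the inputs of 1 line only, which favoured a difference. SEMA3C, which passed in Kelly only, was tested and not called (Kelly minus NGP log2 difference 0.94, SE 0.738, edgeR adjusted p = 0.292). Among the 49 that passed in the inputs of each line on its own, 31 differed, 21 higher in Kelly and 10 in NGP (63.3%, against 26.4% of all genes that passed in both). Here as in all comparisons the test was the quasi-likelihood test of edgeR, with p-values adjusted by Benjamini and Hochberg and read at 0.05. The lines were sequenced as separate experiments, so line and experiment cannot be told apart, and in bulk RNA fewer expressing cells and less RNA per cell cannot be told apart.

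The ephrin families showed this contrast in several members. EPHB3 had 175, 179.6 and 167 CPM in the Kelly libraries and 7.78, 5.91 and 6.47 CPM in NGP, a log2 difference of 4.87 (SE 0.115, edgeR adjusted p = 5.84e-10). EFNA4, a membrane-anchored A-type ephrin, had 12.4, 12.3 and 11.99 CPM in Kelly and no count in the NGP inputs. This makes it at least 33.1-fold higher in Kelly when 3 counts are allowed in each library at 0. EFNA4 shares part of its exon bases with the readthrough gene AL691442.2, and the files give no way to assign such fragments. In the other direction, EFNB2, a B-type ephrin, was higher in NGP, with a Kelly minus NGP log2 difference of -1.88 (SE 0.206, edgeR adjusted p = 2.39e-05). The receptor EPHA7 was also higher in NGP, with a Kelly minus NGP log2 difference of -2.59 (SE 0.350, edgeR adjusted p = 1.04e-04).

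The other axes were divided between the lines as well. NRP1 was higher in Kelly (log2 difference 1.69, SE 0.184, edgeR adjusted p = 2.28e-05), while its relative NRP2 was higher in NGP (Kelly minus NGP -1.38, SE 0.0874, edgeR adjusted p = 4.71e-07). Both are co-receptors of class 3 semaphorins. ROBO1 was higher in NGP (-1.87, SE 0.166, edgeR adjusted p = 5.38e-06) and ROBO3 in Kelly (1.24, SE 0.198, edgeR adjusted p = 3.22e-04). The secreted netrin NTN4 had no count in the 6-day Kelly DMSO inputs and was at least 36.4-fold higher in NGP. In contrast NTN1, which had no count in the NGP DMSO inputs, was at least 4.89-fold higher in 6-day Kelly.

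**Figure D1:**
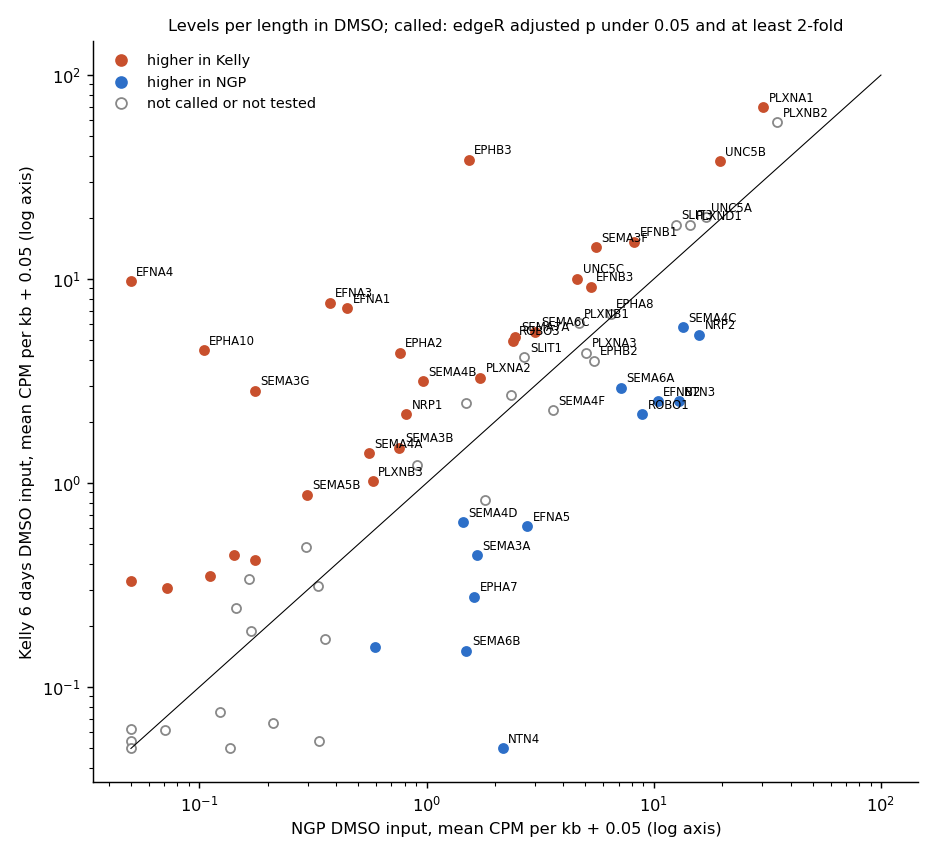
Mean input level per length of the 69 guidance genes in DMSO at 6 days, NGP on the horizontal and Kelly on the vertical log axis, both as CPM per kilobase plus 0.05, with the diagonal marking equal levels. Filled points are the 41 genes called different, 28 above the diagonal (orange) and 13 below it (blue); EPHB3, EFNA4 and EPHA10 lie far to the Kelly side and NTN4 far to the NGP side.

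The main question for the inputs was how METTL3 inhibition changed these transcripts. In 1-day Kelly 10 of 59 tested guidance genes changed, 7 up and 3 down (16.9%, against 17.5% of all genes tested, of which 9.41% up and 8.06% down). In 6-day Kelly 18 of 57 changed, 10 up and 8 down (31.6%, against 26.6%, of which 11.9% up and 14.7% down). In NGP 7 of 53 changed, 5 up and 2 down (13.2%, against 4.23%, of which 2.07% up and 2.16% down). In the xenograft 0 of 50 changed (background 0%), with 3 at an unadjusted p under 0.05 in edgeR and 0 calls with DESeq2. Counts at an unadjusted p, here and below, come without the share of all genes and are no calls.

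The median log2 change over the tested guidance genes stayed near that of all genes in Kelly, at 0.058 against 0.0074 at 1 day and at 0.021 against -0.0045 at 6 days. It was 0.15 against 0.010 in NGP and 0.13 against -0.0059 in the xenograft. In all, 22 guidance genes were called in at least 1 experiment, 12 of them in 1 only. Each gene called in more than 1 experiment had the same direction in them. PLXNA4, SLIT3 and UNC5B rose in all 3 culture experiments, and 7 others (EFNB1, EPHA2, NRP1, NRP2, PLXNA1, SEMA4C and UNC5A) were called in 2. In NGP PLXNA4 had a DMSO library without a count and met the filter on low counts through its treated libraries, which favoured a rise there. Kelly appears in both culture times, but no library is shared between the experiments. How many of all genes were called in 1, 2 or 3 experiments was not counted.

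**Figure D2:**
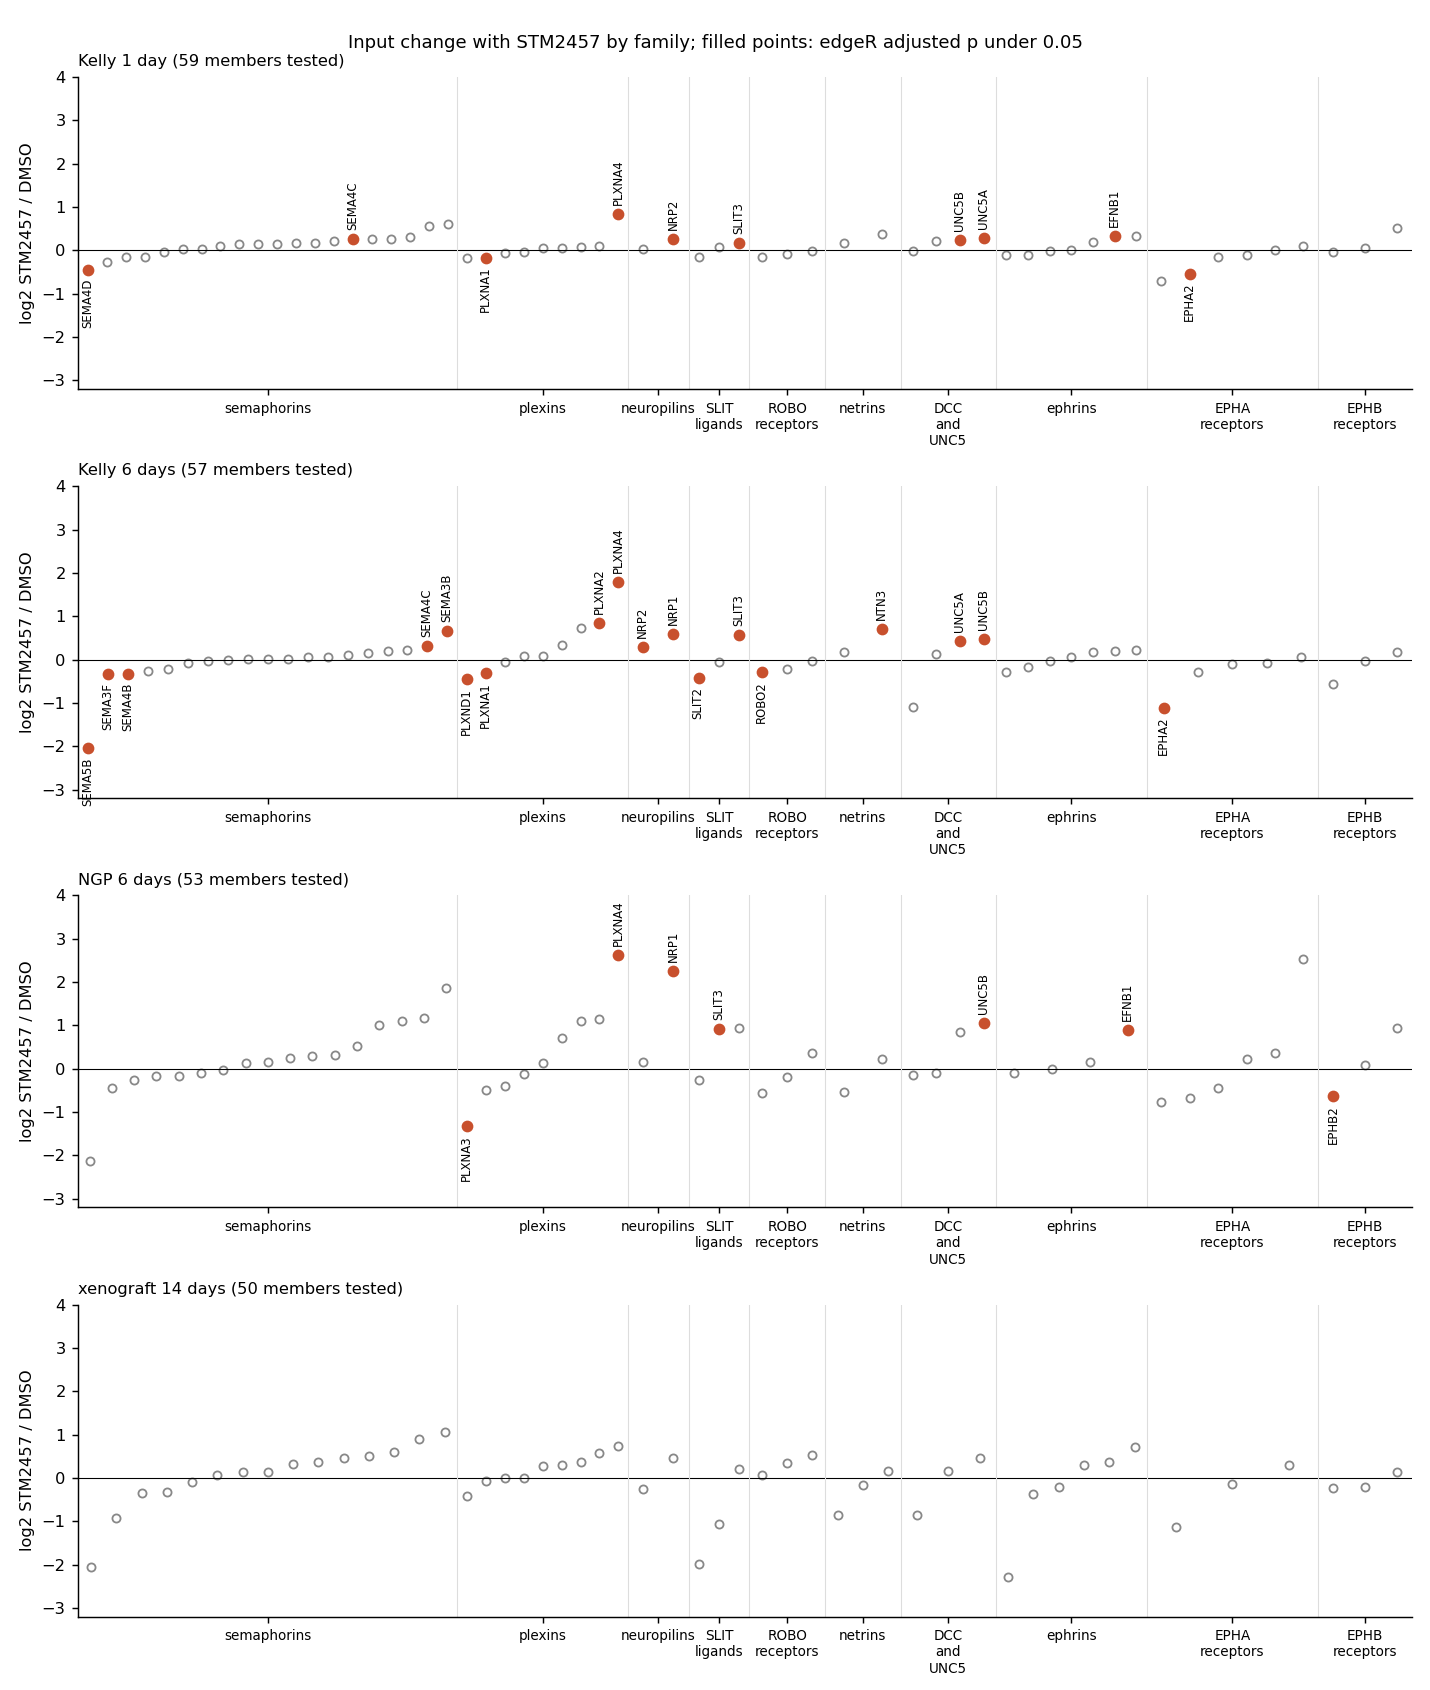
Log2 input change (STM2457 over DMSO) of each tested guidance gene, grouped by family and ordered by value within it, 1 panel per experiment. Filled, named points passed an adjusted p under 0.05; PLXNA4 is the highest called point in each culture panel, and the xenograft panel has no filled point.

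PLXNA4 encodes a class A plexin, a signalling receptor for class 3 semaphorins bound to neuropilins and for class 6 semaphorins. It lies on the minus strand of chromosome 7 (GRCh38, chr7:132123332-132648688) with 16372 exonic bases. In 1-day Kelly it stood at 32.8, 26.5 and 30.4 CPM in DMSO and at 53.3, 54.7 and 55.3 CPM with STM2457. In 6-day Kelly the values were 8.36, 5.71 and 5.34 CPM in DMSO and 23.4, 25.3 and 24.1 CPM with STM2457. In NGP they were 1.36, 0 and 3.18 CPM in DMSO and 10.8, 12.9 and 7.94 CPM with STM2457. Every treated culture library thus lay above every DMSO library of its experiment, although the DMSO level was lower in each following experiment.

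The fitted log2 changes of PLXNA4 were 0.84 (SE 0.0817, edgeR adjusted p = 3.08e-06) in 1-day Kelly, 1.80 (SE 0.156, adjusted p = 4.73e-07) in 6-day Kelly and 2.63 (SE 0.650, adjusted p = 0.0211) in NGP. The NGP call rests on few reads, and the gene met the filter there through its treated libraries. It was lost without DMSO replicate 1, STM2457 replicate 1 or STM2457 replicate 2, with log2 changes from 2.15 to 3.66 over its alternatives. In the xenograft PLXNA4 had 3.95 and 4.81 CPM in DMSO, and 0 and 13.5 CPM with STM2457. The treated libraries lay on either side of the DMSO libraries, and the log2 change of 0.74 had an SE of 1.68.

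UNC5B, a netrin receptor that mediates repulsion and is also known as a dependence receptor, was among the most abundant guidance transcripts. In 1-day Kelly it stood at 514, 531 and 493 CPM in DMSO and at 617, 603 and 616 CPM with STM2457. At 6 days it stood at 255, 258 and 264 CPM in DMSO and at 354, 396 and 422 CPM with STM2457. In NGP it stood at 122, 120.5 and 157 CPM in DMSO and at 344, 253 and 273 CPM with STM2457. The groups did not overlap in any of the 3 cultures. The log2 changes were 0.23 (SE 0.0433, edgeR adjusted p = 0.00136), 0.48 (SE 0.0653, adjusted p = 4.79e-05) and 1.05 (SE 0.163, adjusted p = 2.83e-04). In the xenograft both treated libraries, at 88.1 and 87.2 CPM, lay above the DMSO libraries at 77.7 and 61.1 CPM. The log2 change of 0.46 (SE 0.270) did not pass (edgeR adjusted p = 0.676).

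UNC5A, a repulsive netrin receptor of the same family, was called in Kelly; its difference of response to NGP was not called. It stood at 84.2, 86.3 and 89.5 CPM in DMSO and at 118, 129.6 and 132 CPM with STM2457 at 6 days, a log2 change of 0.43 (SE 0.0649, edgeR adjusted p = 1.31e-04). At 1 day the change was 0.28 (SE 0.0728, adjusted p = 0.0128). In NGP the DMSO libraries held 74.6, 72.7 and 72.2 CPM and the treated ones 76.4, 69.2 and 71.1 CPM, which overlap. NTN3, a netrin, rose in 6-day Kelly from 5.05, 5.16 and 5.99 CPM to 8.93, 9.37 and 10.6 CPM (log2 change 0.70, SE 0.176, edgeR adjusted p = 0.00716).

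SLIT3, a secreted ligand of ROBO receptors, was the most abundant SLIT in both lines. It stood at 615, 596 and 604 CPM in DMSO and at 692, 689 and 698 CPM with STM2457 in 1-day Kelly. At 6 days it stood at 271, 253 and 262 CPM in DMSO and at 409, 432 and 421 CPM with STM2457. In NGP it stood at 221, 126 and 187 CPM in DMSO and at 411, 289 and 355 CPM with STM2457. The treated libraries were higher without overlap in each of these cultures. The log2 changes were 0.17 (SE 0.0390, edgeR adjusted p = 0.00567), 0.57 (SE 0.0594, adjusted p = 3.29e-06) and 0.92 (SE 0.175, adjusted p = 0.00258). The NGP call was lost without STM2457 replicate 1. In 6-day Kelly SLIT2 (-0.42, SE 0.139, edgeR adjusted p = 0.0370) and ROBO2 (-0.29, SE 0.0967, adjusted p = 0.0385) fell, and the SLIT2 call was lost under 9 of 11 alternatives and the ROBO2 call under 6 of 11. In NGP SLIT2 stood at 9.77, 5.91 and 12.9 CPM in DMSO and at 20.7, 16.6 and 20.95 CPM with STM2457, higher without overlap, but its log2 change of 0.94 (SE 0.314) did not pass (edgeR adjusted p = 0.0966).

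Both neuropilins, the co-receptors that bind class 3 semaphorins and VEGF, rose in 6-day Kelly. NRP1 stood at 25.2, 25.4 and 23.0 CPM in DMSO and at 41.8, 41.1 and 35.9 CPM with STM2457, a log2 change of 0.60 (SE 0.0993, edgeR adjusted p = 3.03e-04). In NGP it stood at 9.23, 9.85 and 7.26 CPM in DMSO and at 42.1, 47.0 and 43.5 CPM with STM2457, a log2 change of 2.27 (SE 0.247, adjusted p = 2.25e-06), or 4.81-fold. Treated NGP libraries thus lay at or above the 35.9 to 41.8 CPM of treated 6-day Kelly. In 1-day Kelly NRP1 stood at 126, 118 and 124 CPM in DMSO and at 132, 126 and 128 CPM with STM2457, a change of 0.04 (SE 0.0509) that did not pass (adjusted p = 0.618). In the xenograft NRP1 had 55.3 and 41.3 CPM in DMSO and 55.2 and 67.6 CPM with STM2457, with overlap. NRP2 rose in Kelly by 0.27 (SE 0.0547, edgeR adjusted p = 0.00234) at 1 day and by 0.30 (SE 0.0764, adjusted p = 0.00881) at 6 days.

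The plexins moved in both directions. PLXNA2, a class A plexin, rose in 6-day Kelly from 47.9, 43.3 and 43.3 CPM to 81.0, 91.2 and 90.02 CPM (log2 change 0.85, SE 0.0773, edgeR adjusted p = 7.95e-07). In NGP it went from 24.5, 23.6 and 21.4 CPM to 33.8, 42.6 and 44.2 CPM, a log2 change of 0.72 (SE 0.217) without overlap that missed the threshold (adjusted p = 0.0587). PLXNA3, another class A plexin, fell in NGP from 66.7, 51.6 and 57.6 CPM to 28.0, 22.04 and 23.6 CPM (log2 change -1.32, SE 0.199, adjusted p = 2.16e-04). All treated NGP libraries lay below all DMSO libraries.

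In 6-day Kelly PLXNA3 stood at 55.2, 46.9 and 49.2 CPM in DMSO and at 54.9, 58.4 and 60.7 CPM with STM2457, which overlap. PLXND1, the receptor of SEMA3E, fell in 6-day Kelly from 177, 183 and 176 CPM to 132, 139.5 and 152 CPM (log2 change -0.46, SE 0.0627, edgeR adjusted p = 5.46e-05). PLXNA1 fell in Kelly by 0.17 (SE 0.0509, adjusted p = 0.0318) at 1 day and by 0.31 (SE 0.0650, adjusted p = 0.00203) at 6 days on the log2 scale. The 1 day call was lost under 6 of 11 alternatives.

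**Figure D3:**
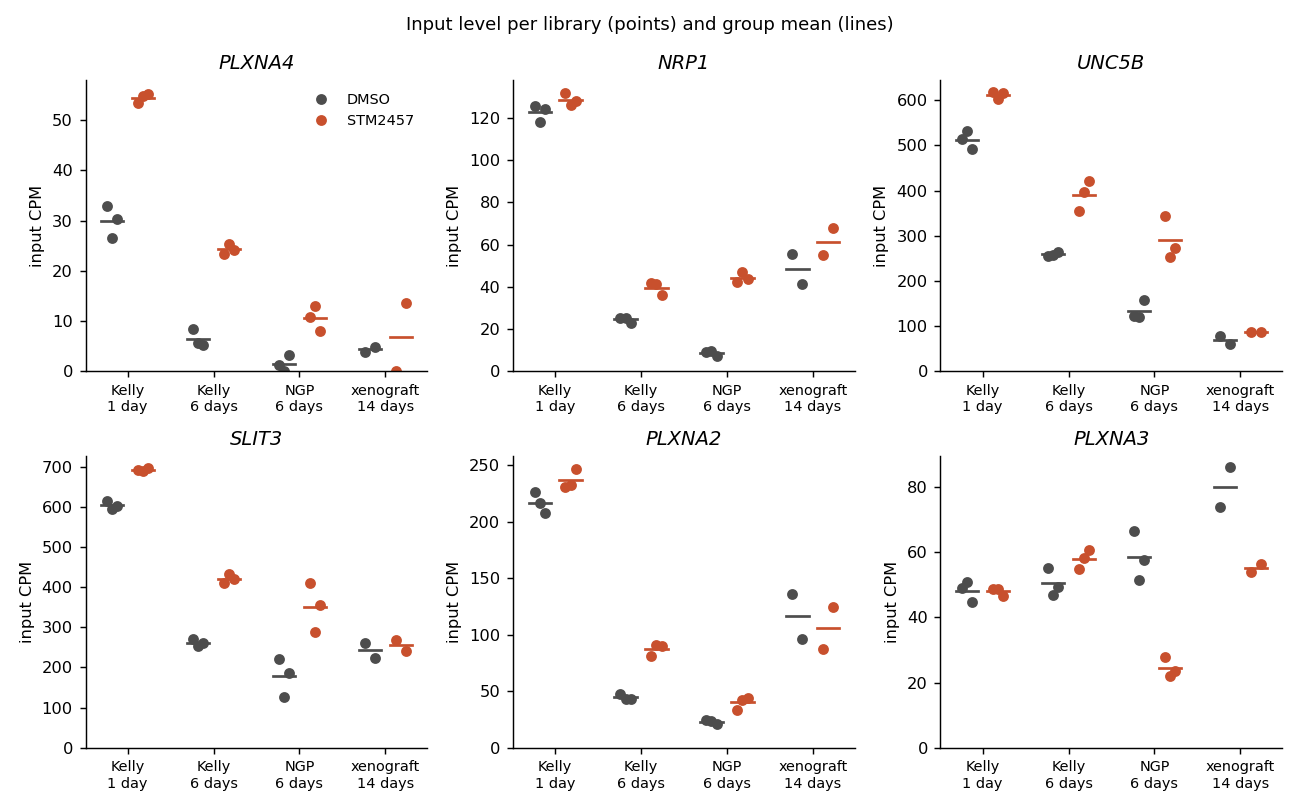
Input level in CPM of 6 guidance genes in every input library (points) with group means (lines), DMSO in grey and STM2457 in orange, for the 4 experiments. PLXNA4, UNC5B and SLIT3 are higher in every treated library of the cultures, NRP1 reaches 42.1 to 47.0 CPM in treated NGP, PLXNA2 rises in 6-day Kelly, and PLXNA3 falls in NGP; each panel has its own linear scale from 0.

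Of the semaphorins 2 of 20 tested were called in 1-day Kelly (10%, against 17.5% of all genes) and 5 of 19 in 6-day Kelly (26.3%, against 26.6%). In NGP 0 of 17 were called (against 4.23%), with 4 at an unadjusted p under 0.05 in edgeR. The difference of response between the lines was called for 1 semaphorin, SEMA5B. SEMA5B, a transmembrane semaphorin, stood at 7.03, 6.89 and 7.21 CPM in 6-day Kelly in DMSO and at 1.29, 2.70 and 0.867 CPM with STM2457. This was the lowest called change among the guidance genes there, with a log2 change of -2.05 (SE 0.300, edgeR adjusted p = 9.81e-05). SEMA3B, a secreted semaphorin, rose from 10.3, 8.06 and 6.56 CPM to 17.1, 12.1 and 12.8 CPM (0.67, SE 0.186, adjusted p = 0.0138), a call lost under 4 of 11 alternatives.

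SEMA4C, a ligand of PLXNB2, rose in Kelly by 0.27 (SE 0.0831, edgeR adjusted p = 0.0335) at 1 day and by 0.32 (SE 0.0873, adjusted p = 0.0130) at 6 days. SEMA4D, a ligand of PLXNB1, fell at 1 day by 0.44 (SE 0.109, adjusted p = 0.00904). SEMA3F and SEMA4B fell at 6 days by 0.33 (SE 0.0930, adjusted p = 0.0137) and by 0.32 (SE 0.113, adjusted p = 0.0457). The DMSO and treated libraries of both overlapped in CPM, and under 11 alternatives the call was lost 5 times for SEMA3F and 9 times for SEMA4B. SEMA4C lost its call under 5 of 11 at 1 day and 3 of 11 at 6 days.

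Of 16 ephrins and EPH receptors tested in 1-day Kelly 1 rose and 1 fell (17.5% of all genes were called). Of 15 in 6-day Kelly 1 fell (26.6% of all genes were called), and of 13 in NGP 1 rose and 1 fell (4.23%). EFNB1, a B-type ephrin, rose in 1-day Kelly from 55.5, 54.7 and 49.4 CPM to 71.4, 65.2 and 67.4 CPM (log2 change 0.33, SE 0.0700, edgeR adjusted p = 0.00342). In NGP it rose from 29.4, 21.5 and 29.7 CPM to 52.8, 60.1 and 45.3 CPM (0.89, SE 0.208, adjusted p = 0.0137), a call lost without STM2457 replicate 1 or replicate 2. In 6-day Kelly EFNB1 changed by 0.07 (SE 0.0868), which did not pass (adjusted p = 0.589).

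The receptor EPHA2 fell in 6-day Kelly from 18.4, 18.2 and 16.8 CPM to 7.46, 8.51 and 12.49 CPM (log2 change -1.11, SE 0.160, edgeR adjusted p = 8.61e-05), with no overlap. At 1 day the fall was 0.54 (SE 0.146, adjusted p = 0.0173), and this call was lost under 4 of 11 alternatives. EPHB2 fell in NGP from 71.4, 57.5 and 75.0 CPM to 45.6, 41.2 and 50.7 CPM (-0.64, SE 0.181, adjusted p = 0.0439), which was lost under 5 of 11 alternatives.

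The counts of calls depended on single libraries in some experiments. In NGP 3 guidance genes were called without STM2457 replicate 1 and 4 without STM2457 replicate 2, against 7. In 1-day Kelly 6 were called without STM2457 replicate 3, against 10. In the xenograft the count moved without either treated library, a fit that leaves 1 library in the group. In the joint fit of all 22 inputs, with 1 spread for all experiments, no guidance gene was called in 1-day Kelly. In 6-day Kelly 6 (against 18) were called, in NGP 17 (against 7) and in the xenograft 6. The share of all genes called in the joint fit is not given, so these counts show only how the calls moved. The 6-day Kelly calls of EPHA2, SEMA5B, PLXND1, PLXNA1 and NTN3 were lost in that fit and under no other alternative.

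Because Kelly at 1 day and at 6 days, and Kelly and NGP, were treated alike, the difference of the responses was tested over the inputs of both experiments. Between the Kelly times 8 of 60 guidance genes differed (13.3%, against 8.41% of all genes tested, of which 3.67% up and 4.73% down). The rise was larger at 6 days for PLXNA4 (difference of log2 changes 0.98, SE 0.174, edgeR adjusted p = 6.41e-04), PLXNA2 (0.77, SE 0.0905, adjusted p = 5.02e-06) and NRP1 (0.58, SE 0.101, adjusted p = 5.18e-04). It was also larger for SLIT3 (0.42, SE 0.0718, adjusted p = 4.41e-04) and UNC5B (0.27, SE 0.0805, adjusted p = 0.0407). The log2 changes of SEMA5B (-2.27, SE 0.516, adjusted p = 0.00623), PLXND1 (-0.49, SE 0.0833, adjusted p = 4.12e-04) and SEMA3F (-0.46, SE 0.126, adjusted p = 0.0225) were lower at 6 days than at 1 day. For SEMA5B the 1-day change rests on a low level. It stood at 0.701, 0.911 and 0.828 CPM in DMSO and at 0.509, 1.28 and 1.12 CPM with STM2457 at 1 day. The calls of UNC5B and SEMA3F were each lost under 6 of 16 alternatives.

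The DMSO libraries of the Kelly experiments themselves stood apart. NRP1 averaged 123 ± 3.96 CPM (SD, n = 3) at 1 day and 24.6 ± 1.35 CPM at 6 days in DMSO. PLXNA4 averaged 29.9 ± 3.17 CPM at 1 day and 6.47 ± 1.64 CPM at 6 days. UNC5B averaged 513 ± 19.3 CPM and 259 ± 4.38 CPM. The level of SEMA5B in DMSO went the other way, from 0.701, 0.911 and 0.828 CPM at 1 day to 7.03, 6.89 and 7.21 CPM at 6 days. Time in culture and experiment cannot be told apart, and this difference was not tested.

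Between Kelly and NGP at 6 days 5 of 62 guidance genes differed in response (8.06%, against 1.36% of all genes tested, of which 0.565% up and 0.796% down). The differences below are Kelly minus NGP. NRP1 rose more in NGP (-1.66, SE 0.221, edgeR adjusted p = 4.34e-04), and PLXNA3, with 0.09 in Kelly, fell in NGP (1.43, SE 0.187, adjusted p = 3.77e-04). SEMA5B (-3.22, SE 0.745, adjusted p = 0.0372), EPHB2 (0.85, SE 0.195, adjusted p = 0.0372) and EPHB3 (-0.95, SE 0.222, adjusted p = 0.0396) completed the set. Leaving out any 1 of the 6 Kelly inputs, or treated NGP replicate 1, left 2 or 3 calls, and NRP1 and PLXNA3 were called under every alternative. The call was lost under 10 of 16 alternatives for EPHB2, under 9 for EPHB3 and under 7 for SEMA5B. For PLXNA4 (-0.74, SE 0.603), SLIT3 (-0.32, SE 0.208) and UNC5B (-0.54, SE 0.179, edgeR adjusted p = 0.171) the difference did not pass.

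Other genes of the pathway were read from lists of 33 further guidance cues and receptors and 54 intracellular effectors. Of the further cues and receptors, 4 of 29 tested rose in 1-day Kelly and none fell (13.8% called, against 17.5% of all genes). At 6 days 3 of 28 rose and 1 fell (14.3%, against 26.6%), and in NGP 1 of 27 fell (3.7%, against 4.23%). The largest rises in 6-day Kelly were those of the adhesion molecules NCAM1 (log2 change 0.61, SE 0.0639, edgeR adjusted p = 3.45e-06) and CNTN2 (0.38, SE 0.131, adjusted p = 0.0417). BOC, a receptor of Sonic hedgehog, fell by 0.52 (SE 0.141, adjusted p = 0.0125), and CNTN1 fell in NGP by 0.85 (SE 0.202, adjusted p = 0.0158). At 1 day LRRC4 (0.32, SE 0.0874, adjusted p = 0.0156) and CNTN2 (0.24, SE 0.0626, adjusted p = 0.0146) rose most.

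Of the effectors, 8 of 53 rose and 11 fell in 1-day Kelly (35.8% called, against 17.5%), 8 of 53 rose and 10 fell at 6 days (34%, against 26.6%), and 1 of 49 rose and 1 fell in NGP (4.08%, against 4.23%). In 6-day Kelly the guanine nucleotide exchange factor TRIO (log2 change 0.51, SE 0.0664, edgeR adjusted p = 2.91e-05) and SRGAP3 (0.51, SE 0.0941, adjusted p = 7.44e-04), a SLIT-ROBO GTPase-activating protein, rose most. The GTPase RRAS (-1.26, SE 0.208, adjusted p = 2.83e-04) and the exchange factor VAV3 (-1.03, SE 0.361, adjusted p = 0.0442) fell most. At 1 day SRGAP1 (0.45, SE 0.116, adjusted p = 0.0115) and NCK2 (0.36, SE 0.0920, adjusted p = 0.0118) rose most, and SRC (-0.31, SE 0.0622, adjusted p = 0.00225) and RHOA (-0.31, SE 0.0460, adjusted p = 1.98e-04) fell most. In NGP the adaptor NCK2 rose (0.58, SE 0.160, adjusted p = 0.0394) and SRGAP3 fell (-1.08, SE 0.235, adjusted p = 0.00807). Neither list had a call in the xenograft, where 24 cues and receptors and 47 effectors were tested.

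Over the 22 input libraries the guidance genes whose level followed PLXNA4 most closely were SLIT3 (Spearman 0.91), UNC5B (0.87) and UNC5C (0.79). The libraries share their experiments and differ in depth, so these values only describe the pattern.

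The second readout was the ratio of RIP to input, which is higher for transcripts with more fragments bound by the m6A antibody. A gene is called enriched or depleted at an adjusted p under 0.05 and at least 2-fold. For a gene that passed the filter on low counts through its RIP libraries only, the filter favoured a higher RIP level. Such genes were not taken out of the counts and medians below. In DMSO, 25 of 59 guidance genes were enriched and 4 depleted in 1-day Kelly (49.2% called, against 55.5% of all genes tested). In 6-day Kelly 30 of 59 were enriched and 2 depleted (54.2%, against 53.1%). In NGP 11 of 58 were enriched and 11 depleted (37.9%, against 40%, of which 20.9% enriched and 19% depleted). The xenograft had 1 of 54 enriched and 0 depleted (1.85%, against 3.75%, of which 1.61% enriched and 2.15% depleted).

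The share called was close to the background, but the direction was not evenly divided in Kelly. Of all genes tested, 26.3% were enriched and 29.1% depleted at 1 day, and 25.8% and 27.3% at 6 days. The median log2 ratio of the guidance genes was 0.86 against -0.066 over all genes at 1 day, and 1.17 against -0.10 at 6 days. In NGP it was 0.18 against 0.082, and in the xenograft 0.71 against -0.16. Among the ligands 15 of 32 were enriched at 1 day and 17 of 31 at 6 days, and among the receptors 10 of 27 and 13 of 28.

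Differences between the families were not tested. Of the semaphorins 10 of 20 were enriched and 0 depleted in 1-day Kelly, and 11 of 19 and 0 at 6 days, with medians of 1.19 and 1.64. All 3 tested EPHB receptors were enriched at both Kelly times, with medians of 1.504 and 1.601. Among the EPHA receptors EPHA5 and EPHA7 were enriched in all cultures. The receptors UNC5A and UNC5B lay at the other end, depleted in 1-day Kelly and in NGP but not called in 6-day Kelly. Their relative UNC5C was enriched in 6-day Kelly, with a log2 ratio of 1.48, against 0.01 at 1 day and 0.83 in NGP. Of the 9 plexins 3 were enriched at 1 day and 4 at 6 days in Kelly with 0 depleted, while PLXNA1, PLXNB1, PLXNB2 and PLXNB3 were depleted in NGP.

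**Figure D4:**
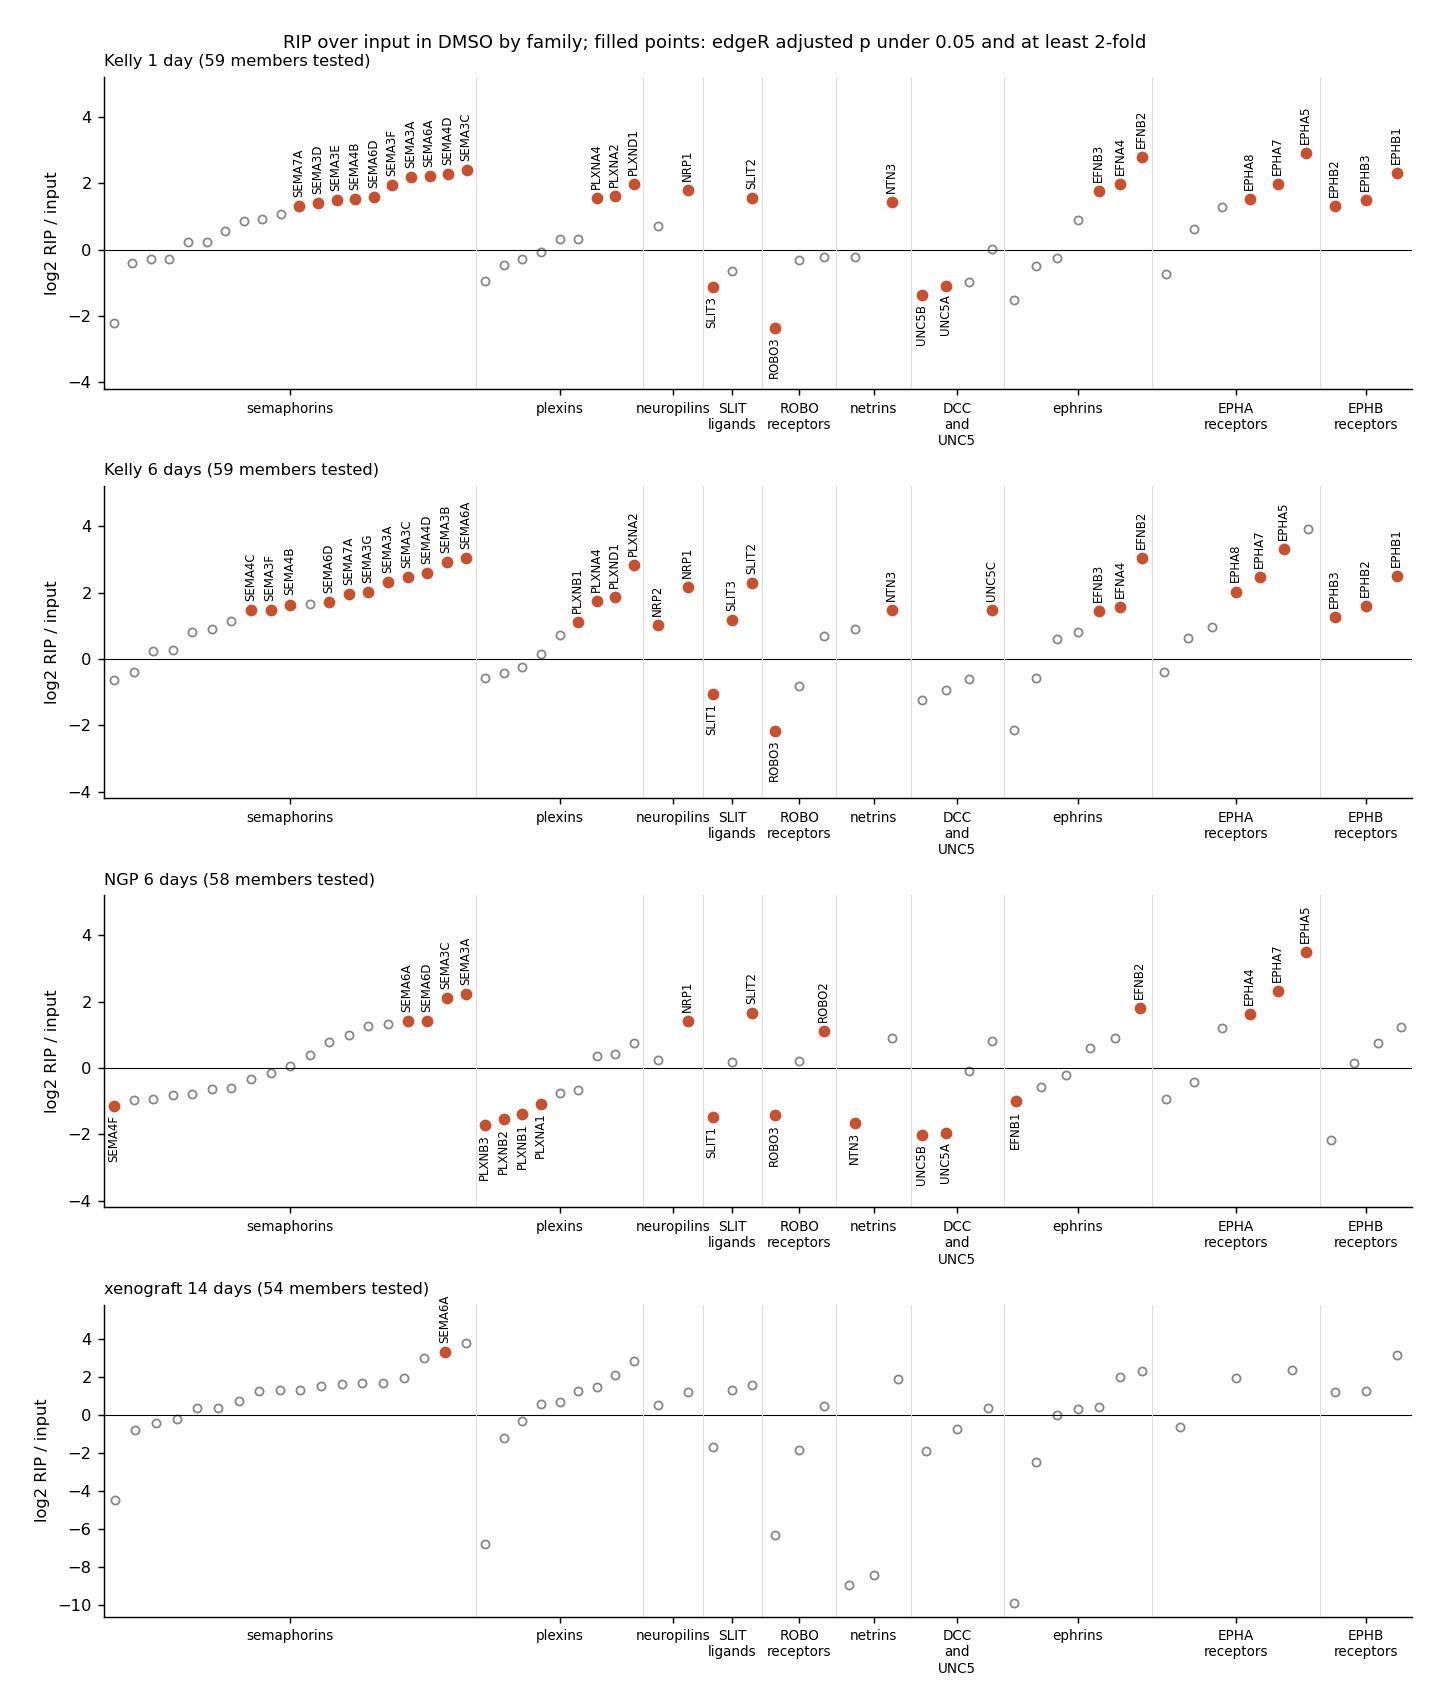
Log2 ratio of RIP over input in DMSO for each tested guidance gene, grouped by family and ordered by value within it, 1 panel per experiment; the xenograft panel has a longer scale. Filled, named points were called enriched or depleted; most called semaphorins and EPH receptors lie above 0, UNC5A, UNC5B and ROBO3 below 0, and the 4 lowest xenograft ratios (EFNA3, NTN5, NTN3, PLXNB3) are genes with 0 RIP reads, whose fitted ratios are no bounds.

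Among the 54 guidance genes tested in all 3 cultures, EFNB2, EPHA5, EPHA7, NRP1, SEMA3A, SEMA3C, SEMA6A, SEMA6D and SLIT2 were enriched in each. ROBO3, a ROBO receptor that modulates the response to SLIT at the midline, was depleted in each, with log2 ratios of -2.34 (SE 0.959), -2.16 (SE 0.366) and -1.42 (SE 0.302). By the mean over the cultures the highest were EPHA5 (3.23), EFNB2 (2.55), SEMA3C (2.33), EPHA7 (2.26) and SEMA3A (2.25), and the lowest ROBO3 (-1.98), EFNA3 (-1.41) and UNC5B (-1.32). EFNA3 shares 43.9% of its exon bases with AL691442.2, and none of its culture ratios was called. SEMA3C had at most 2.69 CPM in the NGP inputs and failed the filter there. It entered the NGP fit through its RIP libraries, at 8.83, 6.36 and 6.98 CPM in DMSO, so the filter favoured its enrichment in NGP. How many of all genes were enriched or depleted in all 3 cultures was not counted.

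The sequence that m6A writers prefer is centred on GGACT in DNA letters. Coding sequences of the guidance genes held a median of 1.49 GGACT per kilobase, against 0.96 over all 18962 genes with a protein-coding transcript, counted on the longest transcript of GENCODE 44. The following windows of 100 coding bases, each within 1 exon, hold the most GGACT in each gene. They come from the 3 guidance genes of highest mean ratio and from ROBO3 and UNC5B, the lowest that were called depleted, and show that the motif occurs at both ends of the order. Capitals mark GGACT, searched on the sense strand.
EPHA5: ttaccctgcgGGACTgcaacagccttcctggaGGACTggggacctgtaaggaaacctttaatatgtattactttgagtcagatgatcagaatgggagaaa
EFNB2: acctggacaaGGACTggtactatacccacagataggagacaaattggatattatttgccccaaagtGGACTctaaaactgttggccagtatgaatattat
SEMA3C: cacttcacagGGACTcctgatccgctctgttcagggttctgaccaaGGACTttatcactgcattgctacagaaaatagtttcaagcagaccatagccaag
ROBO3: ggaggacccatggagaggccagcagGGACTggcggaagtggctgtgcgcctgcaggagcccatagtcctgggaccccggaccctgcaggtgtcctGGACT
UNC5B: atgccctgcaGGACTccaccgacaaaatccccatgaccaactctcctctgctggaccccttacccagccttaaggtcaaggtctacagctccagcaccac

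In GRCh38 the EPHA5 window is chr4:65602057-65602156 on the minus strand, in exon 3 of its transcript, and the EFNB2 window is chr13:106512707-106512806 on the minus strand, in exon 2. The SEMA3C window is chr7:80745182-80745281 on the minus strand, in exon 18. The ROBO3 window is chr11:124874810-124874909 on the plus strand, in exon 12, and the UNC5B window is chr10:71291507-71291606 on the plus strand, in exon 10. EPHA5, EFNB2, SEMA3C and ROBO3 hold 2 GGACT in their window, a number that 10.1% of all genes reach in their own densest window. UNC5B holds 1, which 65.4% of genes reach.

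The count of this motif did not order the ratios. Across the 54 guidance genes the mean ratio and GGACT per kilobase of coding sequence had a Spearman correlation of 0.11, and with GGACT per kilobase of whole transcript it was -0.11. SEMA3A, enriched in every culture, had no GGACT in its coding sequence, while ROBO3, depleted in every culture, had 1.22 per kilobase. Exonic length gave a correlation of 0.15. These genes share libraries and differ in level and base composition, so the correlations are descriptions. Other forms of the motif were not counted, and a match is not a methylated site.

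The highest ratios can be read library by library. Each ratio below is a RIP library over the mean input of its group, in log2. EPHA5, a receptor of A-type ephrins, had ratios of 2.99, 2.69 and 2.86 in 1-day Kelly, 3.58, 2.79 and 3.41 at 6 days and 3.41, 3.97 and 2.59 in NGP. The DMSO ratios all lay between 2.59 and 3.97, on an input level of at most 3.56 CPM in any library. In NGP the DMSO inputs held only 4, 0 and 3 reads of EPHA5, so its ratios there rest on few reads. EFNB2, the ligand of EPHB receptors, had ratios of 2.79, 2.63 and 2.88, then 2.78, 2.92 and 3.33, then 2.21, 1.76 and 1.54. SEMA6A, a transmembrane ligand of class A plexins, was the 1 gene called in the xenograft, at a fitted log2 ratio of 3.29 (SE 0.745, edgeR adjusted p = 0.0462). That call was lost without either DMSO input, without DMSO RIP replicate 2 and without either treated input.

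NTN3, PLXNB1 and SLIT3 were enriched in 1 experiment and depleted in another. NTN3 was enriched in 1-day Kelly (1.43, SE 0.450, edgeR adjusted p = 0.0127) and at 6 days (1.48, SE 0.337, adjusted p = 0.00248) and depleted in NGP (-1.65, SE 0.451, adjusted p = 0.00355). PLXNB1, the receptor of SEMA4D, had 1.10 (SE 0.179, adjusted p = 2.10e-04) in 6-day Kelly and -1.38 (SE 0.234, adjusted p = 2.94e-05) in NGP. SLIT3 was depleted in 1-day Kelly, with ratios of -1.17, -1.01 and -1.20, and enriched at 6 days, with ratios of 1.16, 1.02 and 1.31. These differences between experiments were not tested, and time and experiment cannot be told apart.

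The third question was whether STM2457 changed RIP over input. In 1-day Kelly the ratio fell for 6 of 59 guidance genes and rose for none (10.2%, against 17.2% of all genes tested, of which 7.62% down and 9.53% up). In 6-day Kelly it fell for 1 of 59 (1.69%, against 2.06%, of which 0.803% down and 1.26% up). In NGP 0 of 58 changed, against 0% of all genes, with 1 at an unadjusted p under 0.05 in edgeR and 0 with DESeq2. In the xenograft 0 of 54 changed, against 0%, with 4 at an unadjusted p under 0.05 and 1 call with DESeq2.

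These ratios are relative to the other transcripts, because each library is scaled to its own total by TMM. When the RIP libraries were instead scaled to the 13 mitochondrially encoded mRNAs, the median change over all genes moved from -0.028 to -1.47 in 1-day Kelly and from 0.20 to -1.93 at 6 days. Under that scaling the ratio fell for 41 of 59 guidance genes at 1 day (69.5%, against 61.1% of all genes tested) and for 31 of 59 at 6 days (52.5%, against 28.8%). In NGP the median over all genes moved from -0.0034 to -0.21. This scaling takes the RIP to input ratio of the mitochondrial mRNAs as unchanged by STM2457, which was not tested. Their share of the reads varied between replicates. In 6-day Kelly it was 0.26, 0.30 and 0.077% in the DMSO RIP libraries and 5.09, 4.06 and 1.79% in the treated inputs.

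Of the 6 calls in 1-day Kelly 3 were UNC5 receptors. UNC5A had ratios of -0.61, -1.30 and -1.46 in DMSO and -2.27, -2.50 and -1.95 with STM2457, a log2 change of -1.15 (SE 0.300, edgeR adjusted p = 0.0195). UNC5B had -1.30, -1.43 and -1.32 in DMSO and -2.52, -1.94 and -2.05 with STM2457 (-0.80, SE 0.160, adjusted p = 0.00452). UNC5C had 0.01, -0.01 and 0.03 in DMSO and -0.45, -0.44 and -0.55 with STM2457 (-0.49, SE 0.0937, adjusted p = 0.00336). Each of these receptors had all treated ratios below all DMSO ratios, and UNC5D, the remaining member tested, was not called.

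For UNC5A and UNC5B the input rose in the same cells, as given above, and the RIP level was lower. UNC5A stood at 38.2, 23.96 and 21.6 CPM in the RIP libraries in DMSO and at 14.1, 11.9 and 17.8 CPM with STM2457. UNC5B stood at 197, 183 and 199 CPM there in DMSO and at 96.1, 142 and 134 CPM with STM2457. UNC5C had RIP levels of 166, 166 and 172 CPM in DMSO and 115, 115 and 108 CPM with STM2457. The RIP levels of all 3 receptors did not overlap between the groups. In the input UNC5C stood at 179, 167 and 176 CPM in DMSO and 179, 171 and 175 CPM with STM2457. In 6-day Kelly the changes of UNC5A, UNC5B and UNC5C were -0.11 (SE 0.422), -0.51 (SE 0.337) and 0.41 (SE 0.330), and none passed. The spread of the RIP fits was wider, with a coefficient of variation of 0.398 at 1 day and 0.52 at 6 days.

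EFNB3, a B-type ephrin, had ratios of 1.76, 1.77 and 1.76 in DMSO and 0.96, 0.17 and 0.70 with STM2457 in 1-day Kelly (log2 change -1.13, SE 0.263, edgeR adjusted p = 0.0110). PLXND1 had 2.05, 1.90 and 1.96 in DMSO and 1.56, 1.68 and 1.52 with STM2457 (-0.38, SE 0.0968, adjusted p = 0.0176). SEMA4C had 1.06, 0.98 and 0.69 in DMSO and 0.48, -0.08 and 0.04 with STM2457 (-0.75, SE 0.231, adjusted p = 0.0429). The treated ratios of all 3 genes were lower without overlap. UNC5B, UNC5C and EFNB3 were called under every alternative, while the call was lost for SEMA4C under 12, for PLXND1 under 5 and for UNC5A under 3 of 17. The count fell to 3 without DMSO input replicate 3 and rose to 10 without STM2457 RIP replicate 1.

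**Figure D5:**
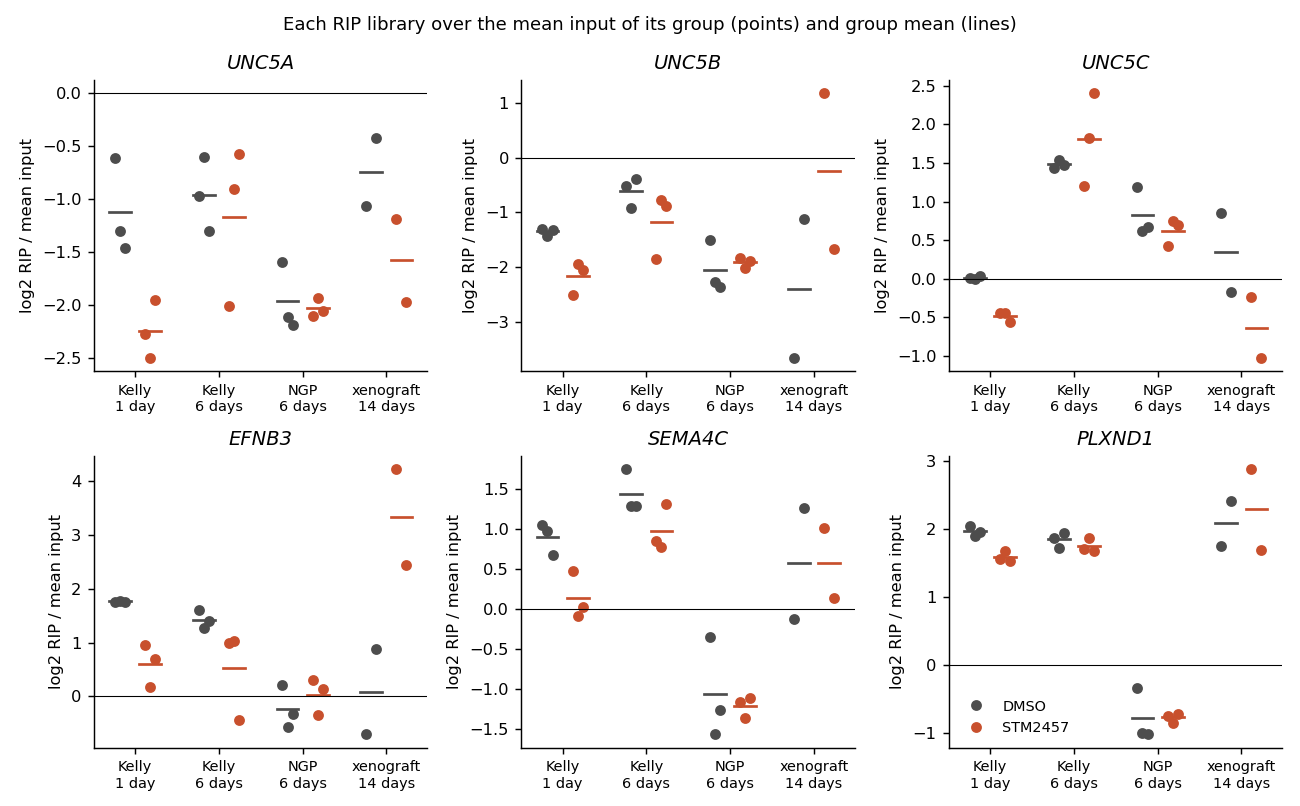
Log2 ratio of each RIP library over the mean input of its group for the 6 guidance genes called in 1-day Kelly (points, with lines at the group means), DMSO in grey and STM2457 in orange. In 1-day Kelly every treated point lies below every DMSO point, while in NGP the groups overlap for each of these genes; each panel has its own scale.

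In 6-day Kelly SEMA5B was the 1 call. Its RIP libraries held 115, 117 and 47 reads in DMSO and 1, 0 and 1 with STM2457. Per library total this is a 267-fold lower RIP level with a 95% counting interval (exact Clopper-Pearson) from 73.3 to 2217, beside the 4.14-fold lower input. The interval covers counting error only. The fitted change of the ratio was -5.32 (SE 1.15, edgeR adjusted p = 0.0374), and it was lost under 10 of 17 alternatives. Leaving out any 1 input, or DMSO RIP replicate 2, left no guidance gene called, and leaving out DMSO RIP replicate 1 or 3 or a treated RIP library gave 2 to 4.

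PLXNA4, NRP1 and SLIT3, which rose in the inputs of 6-day Kelly and NGP, had no called change of the ratio in those experiments. PLXNA4 had a change of 0.53 (SE 0.379) in 6-day Kelly and of -0.30 (SE 0.786) in NGP. NRP1 had 0.96 (SE 0.285, edgeR adjusted p = 0.111) and -0.06 (SE 0.279). SLIT3 had -0.51 (SE 0.232, adjusted p = 0.301) and -0.23 (SE 0.293). PLXNA3, which fell in the NGP input, had -0.03 (SE 0.301) there.

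In the xenograft the 3 guidance genes with an unadjusted p under 0.05 in the input were SLIT1, EFNB3 and PLXNA1. SLIT1, a ROBO ligand, had 30.7 and 27.0 CPM in DMSO and 5.96 and 7.46 CPM with STM2457 (log2 change -1.98, SE 0.594, edgeR adjusted p = 0.515). EFNB3 had 28.8 and 28.7 CPM in DMSO and 2.19 and 8.86 CPM with STM2457 (-2.28, SE 0.760, adjusted p = 0.532). PLXNA1 had 550.4 and 594 CPM in DMSO and 649 and 628 CPM with STM2457 (0.28, SE 0.123, adjusted p = 0.576). The groups did not overlap for these genes, but none passed with 2 libraries a group. The share of all genes at this unadjusted p is not given, so these genes are only described.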

How the data were processed

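The authors deposited a file of raw counts for every library, 1 count per gene. Per the file headers, featureCounts 1.5.3 counted read pairs over the exons of protein-coding GENCODE 33 genes (GRCh38). The headers name no strand or multi-overlap option. HISAT2 2.1.0 and Trimmomatic 0.36 are named in the submitters' processing notes. The spike-in RNAs were not analysed here.

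Input change, RIP over input and its change with STM2457 (the interaction of treatment and library type) were fitted per experiment over all genes with edgeR 4.0.16 quasi-likelihood tests (R 4.3.3, TMM, filterByExpr with minimum count 10 and total 15, Benjamini-Hochberg adjustment at 0.05, two-sided). Differences between experiments were interactions over the inputs of both. SE is the log2 value over the square root of F. CPM uses library totals. Ratios per library use a prior count of 2.

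DESeq2 1.42.0, RLE factors, no filter, replicate blocks, a joint fit of all inputs, mitochondrial factors and each library left out were the alternatives. The fits were tested on simulated data. Of 40 replicate pairs none agreed within sampling noise (lowest chi-square per degree of freedom 2.73).

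The genes and lists were chosen with earlier results of these data known. The genes named are those called in a change or a difference, the highest and lowest RIP ratios, the highest level per length of each family, and the largest called changes of each list. The exons of the guidance genes had identical coordinates in GENCODE 44 for 96.5% of entries.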

Additional observations from a re-analysis of the deposited data

Results flagged for a closer look

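The response of 13 gene and experiment pairs differed between experiments by the interaction term of edgeR's quasi-likelihood test. Between Kelly at 6 days and at 1 day the differences of log2 change (6 days minus 1 day) were 0.98 for PLXNA4, 0.77 for PLXNA2, 0.58 for NRP1, 0.42 for SLIT3 and 0.27 for UNC5B. They were -0.46 for SEMA3F, -0.49 for PLXND1 and -2.27 for SEMA5B. Between Kelly and NGP at 6 days (Kelly minus NGP) they were 1.43 for PLXNA3, 0.85 for EPHB2, -0.95 for EPHB3, -1.66 for NRP1 and -3.22 for SEMA5B. Depth, DMSO level and experiment differ along with time and line, and their part in these differences was not tested.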

How the results depend on the processing

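None of 55 named calls changed direction under its alternatives, 20 were kept under all of them, and 146 of 712 checks lost the call. The input count of guidance genes became 0 (1-day Kelly), 6 (6-day Kelly), 17 (NGP) and 6 (xenograft) in the joint fit of all inputs, which shares 1 spread. A fit with the replicate block gave 12 in the NGP inputs, 3 for the difference of Kelly and NGP, 0 for the ratio change in 6-day Kelly and 3 for the xenograft ratio in DMSO. Whether numbers pair the libraries cannot be told from groups of 2 or 3. As a description, the deviations of libraries from their group means were correlated between same-numbered libraries. In no set did every pair of deviations correlate above 0.1, but single pairs ran from -0.32 to 0.37. For the treated and DMSO RIP libraries of the xenograft this correlation of deviations was -0.21. With groups of 2 both pairs give the same value by construction. DESeq2 gave 8 for the difference of Kelly and NGP, 3 and 1 for the ratio change in 6-day Kelly and in the xenograft, and 6 for the xenograft ratio in DMSO. Without the filter the ratio change in 6-day Kelly had 0 and the xenograft ratio 5, and RLE factors left 0 for the latter. Mitochondrial factors gave 41 and 31 for the ratio change in 1-day Kelly and 6 days. The cause of these shifts was not tested. Apart from the mitochondrial factors, these counts come without the share of all genes called in the same fit.

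Leaving out 1 library gave 6 to 11 input calls in 1-day Kelly, 14 to 16 at 6 days, 3 to 7 in NGP and 0 to 4 in the xenograft. The difference of the Kelly times ran from 6 to 8, that of Kelly and NGP from 2 to 7, and the level difference from 39 to 42. The ratio change ran from 3 to 10 in 1-day Kelly, from 0 to 4 at 6 days and stayed at 0 in NGP and the xenograft. The ratio in DMSO ran from 25 to 30, 30 to 34, 20 to 24 and 0 to 9, where a lone library was assumed to vary like the others. Counting the level difference over genes that passed the filter in each line, an alternative chosen after seeing the data, gave 31. The xenograft inputs had 2.14 to 7.27 M fragments and 2 libraries a group, and the part of depth in its calls was not tested.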
